A study of Mus musculus with 18 samples.

Results

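Nucleolar ribosome biogenesis factors, 43 genes whose proteins build ribosomes, were followed at the level of RNA and translation across 18 sequencing libraries of mouse medulloblastoma cells. The genes were chosen by name, as known nucleolar ribosome biogenesis factors, with earlier results of these data known. All 43 were found among the 15307 features that remained of the deposited counts once rows with equal counts were merged. The cells were of the GTML line, grown from tumours of a mouse model in which the GLT1 and TRE elements direct a human MYCN transgene, with luciferase, to neural progenitors of the hindbrain. All groups carried this overexpressed human MYCN. The cells received DMSO as the control, 50 nM Rapalink-1 or 5 nM rapamycin, each for 3 h and with 3 replicates. Each replicate gave a library of ribosome footprints and, from an aliquot of the same lysate, a library of total RNA. Headers of the deposited counts mark footprint libraries of DMSO and Rapalink-1 as RP-B and those of rapamycin as RP. They also number the rapamycin libraries of both assays after all others, and the meaning is not stated. In every comparison that includes rapamycin, the drug and this difference cannot be told apart. A single line was studied, and the labels do not say whether the replicates were separate cultures, so the p-values below measure the spread between these samples, which may be technical.

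Ribosomal RNA is transcribed, modified, cut and folded with ribosomal proteins inside the nucleolus, and the factors described here guide those steps before leaving the particle. Guide RNA complexes modify the precursor, the small subunit processome and RNA helicases shape the leading part of it, and later factors release the small and large subunits toward the cytoplasm. Many of the genes are known targets of MYC proteins, and ribosome production as a whole is known to follow the growth kinase mTOR. Rapamycin is an allosteric inhibitor of mTOR complex 1, and Rapalink-1 joins rapamycin to a compound that blocks the ATP site of the kinase. In the submitters' account the first blocks signalling to the S6 kinases but not to eIF4E, and the second blocks both. The 2 drugs were given at different doses, so the direct comparison of them below is a comparison of these treatments and not of matched doses.

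The libraries held between 6788365 and 14150068 counted reads. The 43 genes together took 0.930 to 0.993% of RNA reads with DMSO, 0.865 to 0.888% with Rapalink-1 and 0.937 to 0.946% with rapamycin. Their share of footprint reads was 1.25 to 1.29% with DMSO, 1.35 to 1.40% with Rapalink-1 and 1.15 to 1.18% with rapamycin, and neither drug's 3 footprint shares overlapped those of DMSO. Ncl alone held much of these reads, and without it the footprint shares were 0.892 to 0.912% with DMSO, 0.935 to 0.955% with Rapalink-1 and 0.818 to 0.828% with rapamycin, again without overlap. The RNA shares without Ncl were 0.877 to 0.912% with DMSO, 0.815 to 0.831% with Rapalink-1 and 0.822 to 0.831% with rapamycin. Neither drug's RNA shares then overlapped those of DMSO. All these are shares of library totals. On that scale the median log2 change of all genes with Rapalink-1 was 0.28 in footprints and -0.13 in RNA. Of 14 markers of neural progenitors and the hindbrain lineage, 11 had a row and together took 0.0594 to 0.0700% of RNA reads, while Sox2, Zic4 and Atoh1 had none. Rows were found for 1 of 8 oligodendrocyte markers, 2 of 10 markers of microglia and blood and 1 of 11 vascular and fibroblast markers. Markers were looked up by symbol, and only 9787 of the 15307 features carried one. A missing row therefore does not show that a marker was not expressed. The part of other cell types in the results was not tested. In bulk samples, fewer cells of a type and less RNA per cell cannot be told apart.

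Levels are given as CPM, the standard count unit scaled to library size, here after TMM normalization, and are compared only within a gene. Changes are log2 fold changes ± standard error from edgeR's quasi-likelihood fit, and a gene is said to rise or fall at an adjusted p under 0.05, adjusted over all genes tested. Translational efficiency is the log2 change of footprints minus the log2 change of RNA. No spike-in is recorded, so a change is relative to the other genes of a library. The scaling matters for Rapalink-1: with library totals in place of TMM factors, the median change of all genes moved from 0.01 to 0.28 in footprints, from 0.00 to -0.13 in RNA and from 0.05 to 0.43 in efficiency. For rapamycin it moved by at most 0.05. Values under library totals are therefore given beside the Rapalink-1 results.

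In untreated cells the mean log2 ratio of footprints to RNA ran from -1.21 to 2.48 over the 43 genes, and from -4.86 to 5.65 over all genes. Unlike the levels, this ratio is set between genes here. What shapes it besides the density of ribosomes was not examined. The log2 ratio of footprint CPM to RNA CPM, each with 0.5 CPM added, had a median of 0.20 over the 43 genes, against 0.00 over the 11627 genes tested, and 26 of the 43 lay above the median of all genes. Ncl, which encodes nucleolin, an abundant RNA-binding protein of the nucleolus, had the highest ratio, at 2.36, 2.86 and 2.21 in the 3 DMSO replicates. Gar1, a protein of the pseudouridine-forming complexes, followed at 1.93, 1.84 and 1.27, and the helicase Ddx18 at 1.67, 1.53 and 1.50. The values of Ncl did not overlap those of Gar1, but Gar1 and Ddx18 overlapped. At the low end stood Emg1, a methyltransferase acting on small subunit RNA, at -1.26, -1.28 and -1.10, and Rrp9, a protein of the U3 particle, at -1.29, -1.15 and -1.05. These last 2 genes did not differ beyond their spread.

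With Rapalink-1, the footprints of most of the 43 genes fell relative to other genes while their RNA moved both ways. In footprints 26 genes fell and 4 rose. The median was -0.21, and values ranged from -1.02 for Bysl to 0.22 for Ddx10; of all 11281 genes tested, 28.0% fell and 25.7% rose. In RNA 11 genes fell and 9 rose. The median was 0.00, and values ranged from -0.70 for Rrs1 to 0.49 for Imp3; of all 11271 genes, 18.8% fell and 19.4% rose. In translational efficiency 21 genes fell and 4 rose. The median was -0.20, and values ranged from -0.96 for Noc2l to 0.40 for Nop58; of all 11627 genes, 18.9% fell and 20.7% rose. Under TMM factors the share of the 43 genes that rose in RNA was near that of all genes, and the share that fell in footprints and in efficiency was above it. In efficiency the 3 Rapalink-1 values lay apart from the 3 DMSO values for 29 of the 43 genes, against 47.6% of all genes.

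Under library totals the 43 genes gave 9 falls and 17 rises in footprints, with a median of 0.06, while 14.1% of all genes fell and 47.9% rose. In efficiency they gave 4 falls and 19 rises, with a median of 0.18, below the 0.43 of all genes, of which 7.22% fell and 47.8% rose. In RNA they gave 20 falls and 4 rises, against 33.1% and 9.96% of all genes. In efficiency both shares of the 43 genes therefore lay near those of all genes under this scaling.

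A fall in efficiency was called under both scalings for Noc2l, Ddx21, Pes1 and Bysl, and a rise for Nop58, Nop16, Gnl3 and Dkc1. The other 17 falls in efficiency were called only relative to the TMM reference. Of the 26 falls in footprints, 9 were called under both scalings, those of Nhp2, Ddx21, Rrp12, Nob1, Bysl, Rrs1, Noc2l, Nip7 and Mrto4, and 11 had the other sign under library totals. Of the 9 rises in RNA, 4 were called under both, those of Nop14, Imp3, Pes1 and Noc2l. The 11 falls in RNA and the 4 rises in footprints were called under both. Statements on overlap refer to CPM after TMM scaling.

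**Figure D1:**
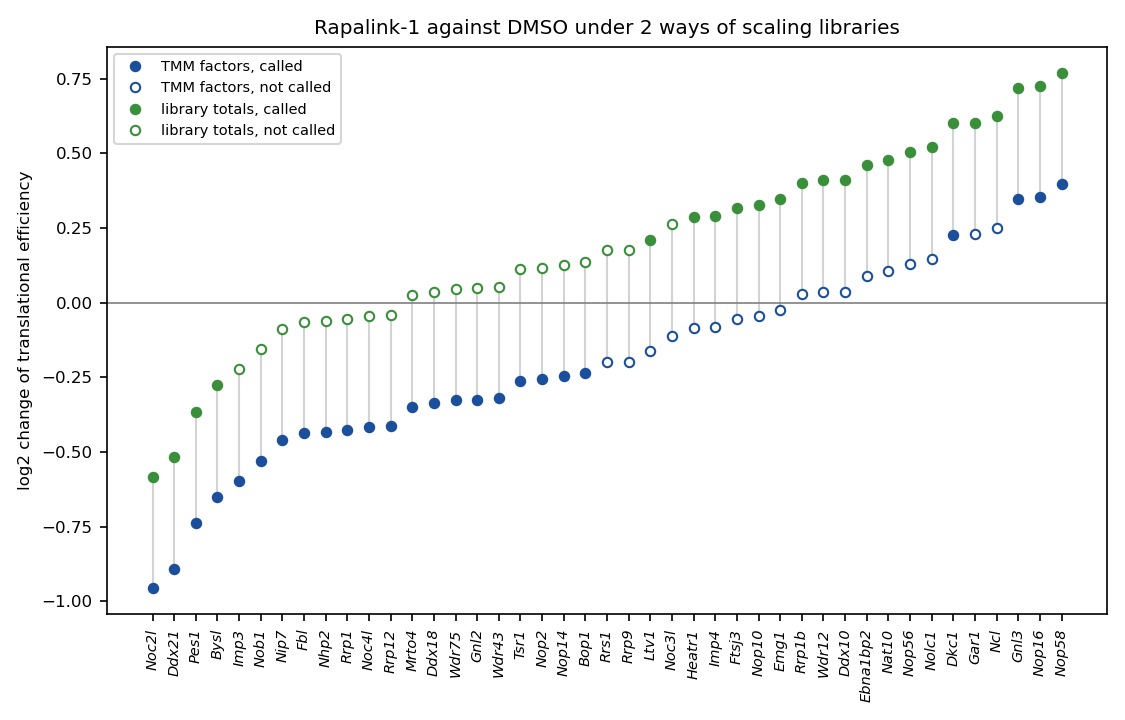
Log2 change of translational efficiency with Rapalink-1 against DMSO for each of the 43 genes (vertical axis), ordered by the value under TMM factors (blue), with the value under library totals in green; filled points passed the test. Every gene lies higher under library totals, and Noc2l, Ddx21, Pes1 and Bysl are filled below zero under both.

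The starts of 8 mRNAs, those with the 4 lowest and the 4 highest efficiency changes with Rapalink-1 among genes with a window, are shown because mRNAs of ribosomal proteins are known to lose ribosomes under mTOR inhibition through a terminal oligopyrimidine motif, a C at the first base followed by a run of pyrimidines. Each line gives 10 bases before the RefSeq start and the first 20 transcribed bases (build GRCm38.p6, which lie in the first exon), with pyrimidines that run unbroken from the first transcribed base in capitals. The 4 lowest come first, then the 4 highest, of which Nop58, Nop16 and Gnl3 rose and Ncl was not called, and the ribosomal protein gene Rps18 last, whose efficiency fell by 3.18 ± 0.067 (adjusted p = 1.5e-42).
Noc2l, chr4:156236000-156236029, plus strand: aggcattctgggcccggaagtgcggcgcac
Ddx21, chr10:62602279-62602308, minus strand: aggcccggctgaggggcggtccgctttctc
Pes1, chr11:3963965-3963994, plus strand: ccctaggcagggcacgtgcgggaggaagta
Bysl, chr17:47611473-47611502, minus strand: tgacatttctagaacgtcatcgactcggct
Nop58, chr1:59684996-59685025, plus strand: gctgctccacgaggagaggtgtggagcggc
Nop16, chr13:54590055-54590084, minus strand: aagaatccttgcgcgcacgggtggacggag
Gnl3, chr14:31019112-31019141, minus strand: atccaacctgTggccgccaggcgagcccgg
Ncl, chr1:86359436-86359465, minus strand: cggggacggaCgcgagctctggttggtgga
Rps18, chr17:33955646-33955675, minus strand: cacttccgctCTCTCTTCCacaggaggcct

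None of the 8 had a pyrimidine run of 5 at its annotated start, while that of Rps18 was 9 bases long. RefSeq start windows were found for 38 of the 43 genes, and in 0 of the 38 was the first base a C followed by at least 4 pyrimidines. The same was true of 3.0% of the 7664 tested genes with a window and of 23.0% of 61 cytosolic ribosomal protein genes. When such a run could begin anywhere within 5 bases of the annotated start, it was found for 7 of the 38 (18.4%), against 23.4% of tested genes and 49.2% of ribosomal protein genes. Noc2l has another RefSeq start 5 bases downstream, which has no such run either. An annotated start can differ from the one used in these cells, so the letters describe the windows only.

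The E-box CACGTG, a palindrome that reads alike on both strands and is known as a binding motif of MYC proteins, was searched in 300 bases, from 250 before to 50 after the start. It was found for 6 of the 38 genes (15.8%), against 12.6% of all tested genes. The genes were Pes1, Wdr43, Tsr1, Nop2, Ltv1 and Imp4. In 4 of them the motif lay within the first 50 transcribed bases, and that of Pes1, which is contained in the window above, began at base 3. The bases around it are given for Pes1 and Nop2, with the motif in capitals.
Pes1, chr11:3963965-3963994, plus strand: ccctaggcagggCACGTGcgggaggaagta
Nop2, chr6:125131811-125131840, plus strand: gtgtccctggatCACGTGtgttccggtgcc

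The median efficiency change with Rapalink-1 was -0.26 over the 6 genes with the motif and -0.07 over the others. Over all tested genes it was 0.005 with the motif and 0.054 without. For a pyrimidine run within 5 bases of the start, it was -0.03 over the 7 genes with one and -0.25 over the others. Ribosomal protein genes with such a run at the annotated start had a median of -2.31, and those without it -2.27. These values describe the genes and were not tested.

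Of 13 large subunit assembly genes, efficiency fell for 6 with Rapalink-1 and rose for 2 under TMM factors (18.9% and 20.7% of all genes). Their footprints fell for 7 and rose for 1 (28.0% and 25.7% of all genes). Under library totals the efficiency fall of Noc2l remained, with the footprint falls of Noc2l, Rrs1, Nip7 and Mrto4. The efficiency rises of Gnl3 and Nop16 and the footprint rise of Gnl3 were kept. Noc2l, a nucleolar protein that accompanies early large subunit precursors, had 103, 109 and 111 footprint CPM with DMSO and 65.1, 67.5 and 65.1 with Rapalink-1. Its RNA was at 134, 134 and 133 CPM with DMSO and 169, 160.0 and 158 with Rapalink-1. The groups did not overlap in either assay, with footprints lower and RNA higher. Footprints fell by 0.71 ± 0.066 (adjusted p = 6.5e-12), RNA rose by 0.28 ± 0.053 (adjusted p = 3.3e-05) and efficiency stood at -0.96 ± 0.083 (adjusted p = 1.4e-14, -0.58 under library totals).

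Rrp1, needed for maturation of large subunit RNA, had higher RNA and lower footprints under TMM factors only. Its RNA went from 238, 247 and 231 to 277, 285 and 287 CPM and its footprints from 214, 224 and 215 to 196, 189 and 175 CPM, without overlap in either. Under library totals its RNA stood at 0.11 (adjusted p = 0.073) and its footprints at 0.053 (adjusted p = 0.44). Efficiency of Rrp1 stood at -0.43 ± 0.076 (adjusted p = 6.9e-06, -0.054 under library totals). Its paralog Rrp1b had RNA of 102, 96.5 and 97.1 CPM with DMSO and 104, 103 and 99.1 with Rapalink-1, and footprints of 75.2, 70.5 and 77.9 and 72.2, 82.6 and 75.9 CPM. Both assays of Rrp1b overlapped, and its efficiency change was 0.028 ± 0.089 (adjusted p = 0.84, 0.40 under library totals). Rrs1, an assembly factor that helps to bring a small RNA particle into the large subunit, lost RNA and footprints together: RNA went from 113, 104 and 107 to 64.1, 65.5 and 70.0 CPM and footprints from 144, 158 and 158 to 75.6, 86.3 and 79.1 CPM. The RNA of Rrs1 fell by 0.70 ± 0.062 (adjusted p = 1.9e-12) and its efficiency stood at -0.20 ± 0.097 (adjusted p = 0.1, 0.18 under library totals). Nip7, a small factor of large subunit RNA maturation, fell in footprints from 172, 171 and 170.1 to 89.8, 98.9 and 96.1 CPM, and its RNA fell by 0.36 ± 0.086 (adjusted p = 0.0039).

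Gnl3 and Nop16 moved the other way. Gnl3, or nucleostemin, a GTPase of proliferating progenitor cells, had 275, 243 and 255 footprint CPM with DMSO and 288, 276 and 289 with Rapalink-1, and its RNA went from 351, 331 and 364 to 299.9, 321 and 309 CPM. Neither assay overlapped, with RNA lower and footprints higher, and efficiency stood at 0.35 ± 0.079 (adjusted p = 0.00028, 0.72 under library totals). The rise in footprints, of 0.14 ± 0.057 (adjusted p = 0.035), was lost without DMSO replicate 2 or 3 or Rapalink-1 replicate 1 or 3 (adjusted p from 0.071 to 0.2). Nop16 had RNA of 58.8, 58.0 and 58.4 CPM with DMSO and 47.3, 46.3 and 49.5 with Rapalink-1, while its footprints overlapped between 78.9 to 85.8 and 83.3 to 85.2 CPM. Its efficiency stood at 0.35 ± 0.10 (adjusted p = 0.0045, 0.73 under library totals), and its footprints at 0.30 (adjusted p = 0.00062) under library totals.

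The PeBoW complex, made of Pes1, Bop1 and Wdr12, is required to cut the precursor of the large subunit RNAs. Pes1 footprints were 419, 423 and 426 CPM with DMSO and 344, 355 and 327 with Rapalink-1, and Pes1 RNA was 337, 361 and 323 and 484, 475 and 456 CPM. Its RNA rose by 0.47 ± 0.046 (adjusted p = 2.2e-11), its footprints fell by 0.30 ± 0.051 (adjusted p = 3.4e-06) and its efficiency stood at -0.74 ± 0.069 (adjusted p = 2.6e-13, -0.36 under library totals). Under library totals the RNA rise remained, at 0.33 (adjusted p = 6.2e-08), and the footprint fall did not, at -0.032 (adjusted p = 0.61). Bop1, the partner that holds the complex together, had RNA of 267, 301 and 272 CPM with DMSO and 285, 293 and 284 with Rapalink-1, which overlapped. Its footprints went from 294, 305 and 281 to 262, 247 and 238 CPM, without overlap, at 0.037 (adjusted p = 0.58) under library totals, and its efficiency stood at -0.24 ± 0.074 (adjusted p = 0.0085, 0.14 under library totals). That call was lost without DMSO replicate 1 (adjusted p = 0.054). Wdr12 had RNA of 175, 171 and 162 and 169, 171 and 177 CPM and footprints of 199, 197 and 211 and 208, 190.4 and 219.7 CPM, with overlapping groups in both assays. It stood at 0.036 ± 0.078 (adjusted p = 0.76, 0.41 under library totals) in efficiency.

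**Figure D2:**
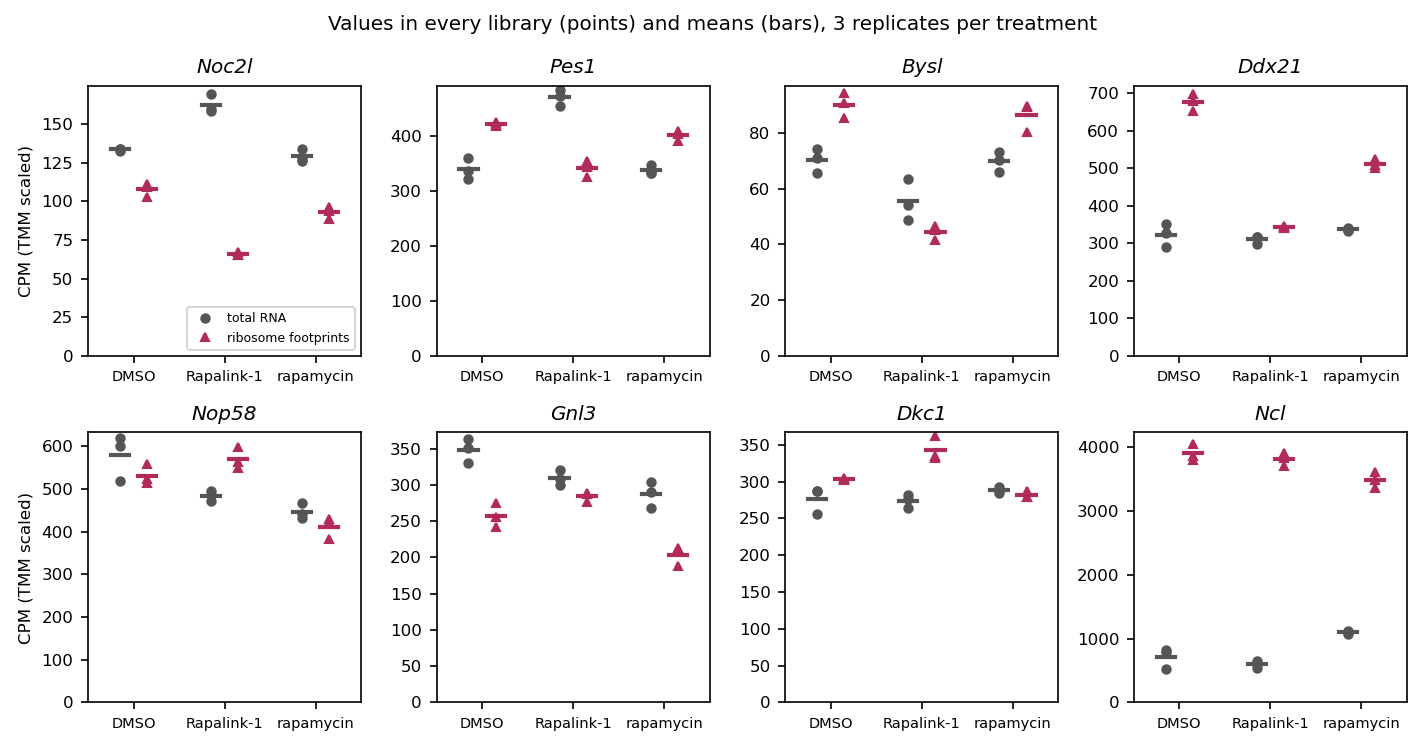
CPM in every library for 8 of the genes, with total RNA as grey circles, ribosome footprints as red triangles and the mean of the 3 replicates of a treatment as a bar; each vertical axis starts at 0. Footprints of Noc2l, Pes1, Bysl and Ddx21 with Rapalink-1 lie below all DMSO values, and the RNA of Noc2l and Pes1 lies above them.

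The small subunit processome is the large particle that forms on the nascent precursor. Of its 9 genes here, efficiency fell for 5 with Rapalink-1 and rose for 0 under TMM factors (18.9% and 20.7% of all genes). RNA rose for 4 of the 9 and fell for 2 (19.4% and 18.8% of all genes). None of the 5 efficiency falls was called under library totals, and of the RNA rises those of Nop14 and Imp3 were. Imp3, which joins the U3 snoRNA to the precursor, had RNA of 58.1, 58.1 and 54.7 CPM with DMSO and 82.1, 78.2 and 80.5 with Rapalink-1, with no overlap. Its footprints were 78.2, 80.9 and 99.5 and 74.8, 81.7 and 77.8 CPM and overlapped, and efficiency stood at -0.60 ± 0.10 (adjusted p = 5.3e-06, -0.22 under library totals). Wdr43 had RNA of 372, 375 and 365 and 422, 429.8 and 408 CPM and footprints of 277, 266 and 258 and 236, 241 and 233 CPM. Neither assay of Wdr43 overlapped, with RNA higher and footprints lower, and its efficiency stood at -0.32 ± 0.074 (adjusted p = 0.00042, 0.054 under library totals). Neither direction was called under library totals, where its RNA stood at 0.045 (adjusted p = 0.45) and its footprints at 0.10 (adjusted p = 0.16). Emg1, the gene with the lowest untreated ratio, fell in RNA from 209, 204 and 207 to 180.2, 170.1 and 175 CPM and in footprints from 87.1, 84.3 and 97.3 to 73.3, 72.3 and 72.3 CPM, and its efficiency stood at -0.025 ± 0.083 (adjusted p = 0.84, 0.35 under library totals). Under library totals the footprints of Emg1 stood at -0.03 (adjusted p = 0.73).

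Relative to the TMM reference, the 5 factors of late small subunit assembly all had lower footprints with Rapalink-1 (28.0% of all genes fell). Efficiency fell for 4 of them (18.9% of all genes). Bysl, or bystin, had 85.5, 94.2 and 90.8 footprint CPM with DMSO and 41.6, 46.7 and 45.1 with Rapalink-1. Its RNA was 65.5, 70.8 and 74.3 and 48.9, 54.1 and 63.6 CPM. Footprints fell by 1.02 ± 0.074 (adjusted p = 5.3e-15), the largest fall of the 43 genes, and RNA fell by 0.34 ± 0.076 (adjusted p = 0.00043). The efficiency of Bysl stood at -0.65 ± 0.11 (adjusted p = 2.5e-06, -0.28 under library totals).

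Nob1, the endonuclease that makes the final cut of the small subunit RNA, had 151, 169 and 165 footprint CPM with DMSO and 106, 113 and 104 with Rapalink-1, without overlap. Its RNA was 59.1, 64.8 and 71.4 and 66.1, 60.7 and 64.7 CPM and overlapped, and its efficiency stood at -0.53 ± 0.094 (adjusted p = 6.4e-06, -0.16 under library totals). Ltv1, an export-related factor of the small subunit, fell in footprints from 82.8, 87.3 and 85.0 to 70.1, 74.5 and 71.7 CPM, with overlapping RNA of 76.2, 73.4 and 78.7 and 71.5, 77.2 and 73.5 CPM, and its efficiency stood at -0.16 ± 0.089 (adjusted p = 0.15, 0.21 under library totals). Under library totals, where 14.1% of all genes fell in footprints, those of Rrp12, Nob1 and Bysl still fell. The footprints of Tsr1 and Ltv1 stood at 0.01 and 0.03 there.

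Ddx21, a DEAD-box helicase that links ribosomal RNA transcription and processing, lost footprints with Rapalink-1 while its RNA values overlapped. Its footprints were 699, 652 and 679 CPM with DMSO and 346, 341 and 343 with Rapalink-1, and its RNA was 327, 290.0 and 351 and 299, 318 and 317 CPM. Footprints fell by 0.98 ± 0.050 (adjusted p = 1.3e-19), which is a fall of 49.3%, and efficiency stood at -0.89 ± 0.074 (adjusted p = 2.7e-15, -0.52 under library totals). Under library totals the RNA of Ddx21 stood at -0.19 (adjusted p = 0.0032). Ddx18, a helicase of large subunit assembly, went from 265, 251 and 258 to 204, 201 and 202 footprint CPM, with overlapping RNA of 82.6, 85.8 and 90.0 and 88.5, 89.3 and 84.1 CPM, and stood at -0.34 ± 0.078 (adjusted p = 0.00038, 0.036 under library totals) in efficiency. The footprint fall of Ddx18 was not called under library totals, at -0.079 (adjusted p = 0.21). Ddx10 had RNA of 109, 109.5 and 111 CPM with DMSO and 124, 135 and 124 with Rapalink-1, and footprints of 148, 131 and 133 and 164, 163 and 155 CPM. Under TMM factors it rose by 0.22 in each assay, and its efficiency stood at 0.037 ± 0.083 (adjusted p = 0.77, 0.41 under library totals). Under library totals its RNA stood at 0.084 (adjusted p = 0.26) and its footprints at 0.49 (adjusted p = 1.6e-08).

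Ncl RNA varied among the DMSO libraries, at 784, 519 and 825 CPM, against 539, 599 and 654 with Rapalink-1, and the second DMSO library was lower than all 3 Rapalink-1 libraries. Its footprints were 4049, 3792 and 3861 and 3833, 3695 and 3908 CPM and overlapped, at 0.24 (adjusted p = 5.3e-05) under library totals, and efficiency stood at 0.25 ± 0.18 (adjusted p = 0.32, 0.62 under library totals). Without DMSO replicate 2 the efficiency of Ncl rose by 0.41 (adjusted p = 1.8e-05). That replicate also decided calls of Nop56 and Nolc1, which rose in efficiency without it, so that 7 genes in place of 4 rose. Nolc1, a phosphoprotein chaperone of snoRNA complexes, fell in RNA from 429.6, 409 and 442 to 365, 361 and 369 CPM, and its efficiency stood at 0.15 ± 0.066 (adjusted p = 0.072, 0.52 under library totals). Its footprints fell by 0.12 ± 0.050 (adjusted p = 0.049), but rose by 0.16 under library totals (adjusted p = 0.0072). The fall was also lost without any 1 of DMSO replicates 2 and 3 and Rapalink-1 replicates 1, 2 and 3 (adjusted p from 0.082 to 0.16). Footprints of Nolc1 were 680.0, 696 and 714 and 631, 651 and 648 CPM.

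The box C/D proteins Fbl, Nop56 and Nop58 form 1 particle that adds methyl groups to ribosomal RNA, and their efficiencies differed in direction with Rapalink-1. Fbl, or fibrillarin, the methyltransferase, had 352, 344 and 333 footprint CPM with DMSO and 272, 262 and 259 with Rapalink-1, and RNA of 192, 188 and 188 and 199.6, 197 and 211 CPM. Its efficiency stood at -0.44 ± 0.071 (adjusted p = 1.1e-06, -0.063 under library totals), and its footprints at -0.10 (adjusted p = 0.1) under library totals. Nop58, a scaffold of the same particle, had RNA of 621, 519 and 602 and 487, 496 and 472 CPM and footprints of 559, 513 and 523 and 563, 549 and 598 CPM. Its RNA fell without overlap, its footprints overlapped, at 0.37 (adjusted p = 6.9e-07) under library totals, and its efficiency stood at 0.40 ± 0.077 (adjusted p = 3.1e-05, 0.77 under library totals). The second scaffold, Nop56, rose in footprints from 585, 598 and 573 to 657, 652 and 658 CPM. Its RNA was 717, 638 and 738 and 731, 740.5 and 725 CPM, and it stood at 0.13 ± 0.067 (adjusted p = 0.12, 0.50 under library totals) in efficiency.

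The box H/ACA proteins Dkc1, Gar1, Nhp2 and Nop10 form the particle that turns uridine into pseudouridine. Nhp2 had 244, 263 and 287 footprint CPM with DMSO and 171, 167 and 177 with Rapalink-1, and RNA of 243, 249 and 240.3 and 219, 219 and 221 CPM, lower without overlap in both. Its efficiency stood at -0.43 ± 0.076 (adjusted p = 4.8e-06, -0.06 under library totals). Dkc1, or dyskerin, the pseudouridine synthase, had 302, 304 and 304 footprint CPM and then 335, 332 and 361, with overlapping RNA of 287, 256 and 288 and 265, 281 and 276 CPM, and its efficiency stood at 0.23 ± 0.073 (adjusted p = 0.0098, 0.60 under library totals). Its footprint rise was lost without Rapalink-1 replicate 3 (adjusted p = 0.056), and its RNA stood at -0.15 (adjusted p = 0.011) under library totals. The efficiency call of Dkc1 was lost without Rapalink-1 replicate 3 (adjusted p = 0.06) or DMSO replicate 1 (adjusted p = 0.052). Nop10 had RNA of 98.3, 97.4 and 90.7 and 90.9, 89.0 and 86.5 CPM and footprints of 180.1, 166 and 210.3 and 158, 168 and 163 CPM, overlapping in both, and its efficiency stood at -0.045 ± 0.096 (adjusted p = 0.75, 0.33 under library totals).

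**Figure D3:**
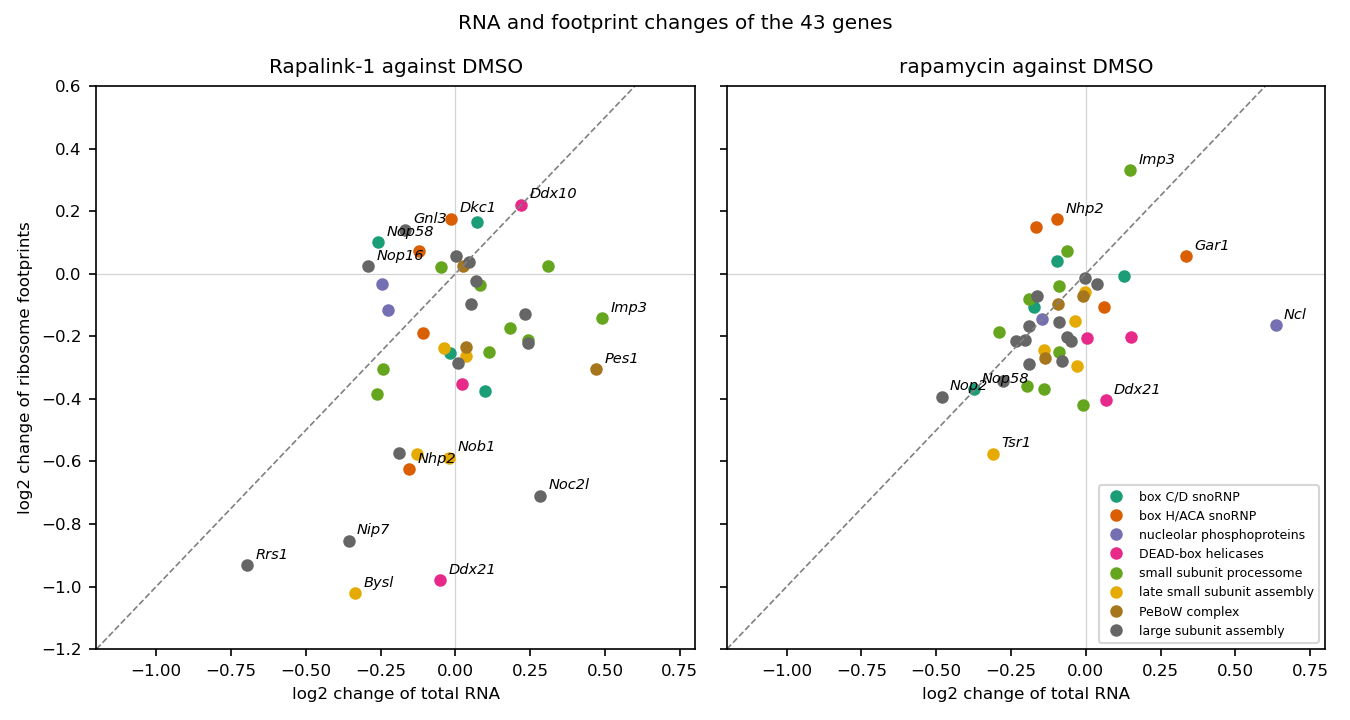
Log2 change of total RNA (horizontal) and of ribosome footprints (vertical) for the 43 genes with Rapalink-1 (left) and rapamycin (right), coloured by role; on the dashed diagonal both changes are equal. With Rapalink-1, Noc2l and Pes1 lie right of zero and below it under TMM factors, and with rapamycin Ncl lies farthest to the right, at 0.63.

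With rapamycin, footprints fell for more of the 43 genes than efficiency did. In footprints 24 of the 43 genes fell and 2 rose. The median was -0.17, and values ranged from -0.58 for Tsr1 to 0.33 for Imp3; of all genes tested, 9.4% fell and 8.75% rose. In RNA 14 fell and 2 rose, with a median of -0.09 and a range from -0.48 for Nop2 to 0.63 for Ncl; of all genes, 10.5% fell and 13.6% rose. In efficiency 7 fell and 2 rose, with a median of -0.07, against 9.39% and 5.97% of all genes. The share of falls in footprints and in RNA was above that of all genes, and RNA and footprints both fell for 12 of the 43, against 2.63% of the 10988 genes tested in both assays. Under library totals footprints fell for 15 of the 43 (5.8% of all genes), RNA for 13 (9.93%) and efficiency for 4 (7.25%), the last near the share of all genes.

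Tsr1, a GTPase-like factor of the late small subunit particle, had 258, 251 and 232 footprint CPM with DMSO and 165, 159.8 and 172 with rapamycin, and RNA of 284, 254 and 286 and 216, 213 and 235 CPM. The groups overlapped in neither assay, and footprints fell by 0.58 ± 0.056 (adjusted p = 4.4e-10) and RNA fell by 0.31 ± 0.050 (adjusted p = 6.3e-06). Nop2, a methyltransferase of large subunit RNA, went from 251, 255 and 238 to 188, 167 and 179 RNA CPM and from 214, 227 and 218 to 161, 176 and 165 footprint CPM, and its efficiency stood at 0.089 ± 0.076 (adjusted p = 0.49). Nop58 and Gnl3 fell in both assays as well: the footprints of Nop58 were 430.1, 383 and 423 CPM and those of Gnl3 209, 188 and 212 CPM with rapamycin, below every DMSO value. Their efficiencies stood at 0.0079 ± 0.077 (adjusted p = 0.97) and -0.066 ± 0.079 (adjusted p = 0.65).

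Ncl was the gene with the lowest efficiency change with rapamycin. Its RNA was 1113, 1107 and 1078 CPM, above all 3 DMSO values, and its footprints were 3351, 3479 and 3608 CPM, below all 3. RNA rose by 0.63 ± 0.18 (adjusted p = 0.048), footprints fell by 0.16 ± 0.046 (adjusted p = 0.0087) and efficiency fell by 0.80 ± 0.18 (adjusted p = 0.011). The efficiency call was lost without rapamycin replicate 1 (adjusted p = 0.056) or replicate 2 (adjusted p = 0.051). The RNA call was lost without DMSO replicate 1 or any 1 rapamycin replicate (adjusted p from 0.083 to 0.12), and the footprint call without DMSO replicate 1 (adjusted p = 0.057) or rapamycin replicate 1 (adjusted p = 0.087). Under library totals RNA stood at 0.64 (adjusted p = 0.051) and footprints at -0.11 (adjusted p = 0.1), neither of which was called. In the authors' deposited tables the footprints of Ncl have an adjusted p of 0.37. There its RNA change is 0.63 (adjusted p = 1.1e-05) and its efficiency change -0.79 (adjusted p = 0.00016).

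Ddx21 fell in footprints from 699, 652 and 679 to 500.4, 524 and 509 CPM and its efficiency fell by 0.47 ± 0.073 (adjusted p = 3e-06), with RNA of 333, 342 and 337 CPM. Ddx18 had an efficiency of -0.35 ± 0.078 (adjusted p = 0.00072) and Heatr1, a large scaffold protein of the processome, of -0.41 ± 0.089 (adjusted p = 0.00061). These 3 genes and Ncl also fell under library totals. The falls of Wdr43, Tsr1 and Nob1 passed the test under TMM factors at -0.23, -0.26 and -0.27 and each was lost when single replicates were left out.

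The 2 genes whose efficiency rose with rapamycin were Nhp2 and Nop10, and the other proteins of the pseudouridine particle, Gar1 and Dkc1, stood at -0.28 ± 0.12 (adjusted p = 0.11) and -0.17 ± 0.073 (adjusted p = 0.12). Gar1 was called lower without DMSO replicate 3 (adjusted p = 0.00077). Nhp2 footprints were 307, 299 and 289.9 CPM, above all DMSO values, with RNA of 223, 235 and 227 CPM, and efficiency rose by 0.27 ± 0.075 (adjusted p = 0.0083). Nop10 footprints were 213, 193 and 213 CPM against 180.1, 166 and 210.3 with DMSO, which overlapped, and efficiency rose by 0.32 ± 0.096 (adjusted p = 0.017). The efficiency call of Nhp2 was lost without rapamycin replicate 1 (adjusted p = 0.079) or DMSO replicate 1 (adjusted p = 0.072). That of Nop10 was lost without rapamycin replicate 1 or 3 or DMSO replicate 1 or 2 (adjusted p from 0.09 to 0.17). Noc2l, Pes1 and Bysl had efficiency changes of -0.16, -0.06 and -0.05 with rapamycin, none past the test, and the footprints of Imp3 rose by 0.33 ± 0.078 (adjusted p = 0.0025).

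**Figure D4:**
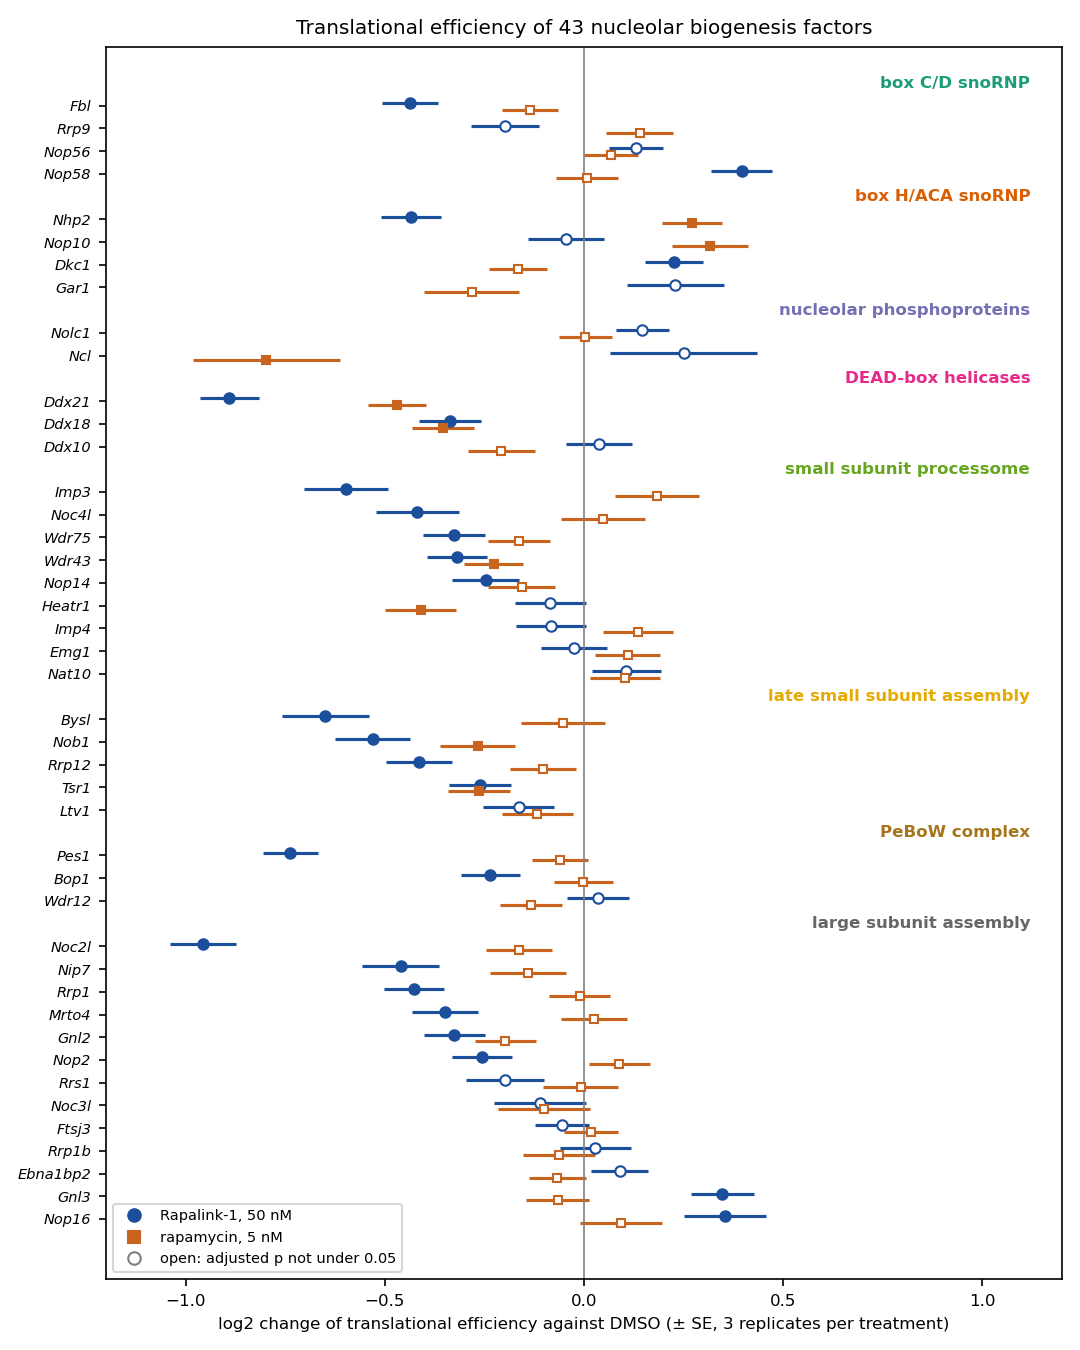
Log2 change of translational efficiency against DMSO (± standard error) for each gene, grouped by role, with Rapalink-1 as blue circles and rapamycin as orange squares; filled symbols passed the test. With Rapalink-1 the 5 late small subunit genes lie below zero under TMM factors, and with rapamycin Ncl lies lowest, at -0.80.

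The direct comparison of the 2 treatments, which tests their difference at 50 nM and 5 nM, placed many of the genes on either side. In efficiency 18 genes were lower with Rapalink-1 than with rapamycin and 8 were higher, with a median of -0.13, against 22.7% and 24.5% of all genes. In footprints 19 were lower and 15 higher (27.6% and 25.4% of all genes), and in RNA 6 were lower and 18 higher (21.5% and 19.6% of all genes). The share of the 43 genes with higher RNA under Rapalink-1 was above that of all genes. Under library totals the counts became 5 lower and 23 higher in efficiency (10.3% and 44.7% of all genes), 9 and 22 in footprints (16.2% and 44.1%), and 16 and 10 in RNA (35.2% and 9.37%).

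Efficiency was lower with Rapalink-1 than with rapamycin under both scalings for Noc2l, Imp3, Nhp2, Pes1 and Bysl. Noc2l differed by -0.79 ± 0.083 (adjusted p = 5.5e-12, -0.47 under library totals), Imp3 by -0.78 ± 0.10 (adjusted p = 5.1e-09, -0.45 under library totals) and Nhp2 by -0.70 ± 0.076 (adjusted p = 1.4e-11, -0.38 under library totals). Pes1 differed by -0.68 ± 0.069 (adjusted p = 2.8e-12, -0.35 under library totals) and Bysl by -0.60 ± 0.11 (adjusted p = 6.8e-06, -0.27 under library totals). In footprints alone, Noc2l, Imp3, Nhp2 and Bysl were lower under both scalings and Pes1 under TMM factors only. Nhp2 had 171, 167 and 177 footprint CPM with Rapalink-1 and 307, 299 and 289.9 with rapamycin, and Bysl 41.6, 46.7 and 45.1 and 89.4, 89.7 and 80.2 CPM.

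Efficiency was higher with Rapalink-1 than with rapamycin under both scalings for Ncl, Gar1, Gnl3, Nop58, Dkc1, Heatr1, Nop16 and Ddx10. Ncl differed by 1.05 ± 0.18 (adjusted p = 0.00039, 1.38 under library totals), with 539, 599 and 654 RNA CPM on one side and 1113, 1107 and 1078 on the other. Gar1 differed by 0.51 ± 0.12 (adjusted p = 0.00042, 0.84 under library totals), with RNA of 32.0, 30.7 and 35.0 CPM with Rapalink-1 and 47.3, 44.1 and 42.7 with rapamycin. Gnl3 differed by 0.41 ± 0.079 (adjusted p = 1.5e-05, 0.74 under library totals) and Nop58 by 0.39 ± 0.077 (adjusted p = 3e-05, 0.72 under library totals). The calls of Ddx10 and Nop16 were each lost when single replicates were left out (adjusted p from 0.064 to 0.25).

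Related gene groups are set beside these values. Of all genes, 18.9% fell and 20.7% rose in efficiency with Rapalink-1 under TMM factors. Of 82 cytosolic ribosomal protein genes, efficiency fell for 80 and rose for 0, with a median of -2.28, or -1.91 under library totals with 80 lower and 1 higher, while the lowest of the 43 genes stood at -0.96. With rapamycin the ribosomal protein median was -0.37 and that of the 43 genes -0.07. Of 109 other ribosome biogenesis genes, efficiency fell for 51 and rose for 10 with Rapalink-1, with a median of -0.19 that became 0.18 under library totals, close to the -0.20 and 0.18 of the 43 genes. Of 15 genes of the RNA polymerase I machinery, which transcribes the ribosomal RNA precursor, 6 fell and 1 rose, with a median of -0.15 that became 0.22. Under TMM factors some of the other biogenesis genes moved farther than any of the 43. The values that follow are given under that scaling only. Under library totals the median efficiency change of all genes with Rapalink-1 was 0.43 in place of 0.05. Npm1, or nucleophosmin, an abundant nucleolar chaperone whose reads may be shared with near-identical copies in the genome, fell by 1.61 ± 0.060 (adjusted p = 6.5e-31). Nop53, a large subunit factor, fell by 1.50 ± 0.080 (adjusted p = 1.5e-23), and Nsa2, another large subunit factor, fell by 1.27 ± 0.098 (adjusted p = 8.1e-15). Mdn1, the giant ATPase that strips factors from the large subunit, rose by 0.85 ± 0.092 with Rapalink-1 (adjusted p = 4.5e-11) and fell by 0.51 ± 0.091 with rapamycin (adjusted p = 3.3e-05). Isg20l2 rose by 0.83 ± 0.12 with Rapalink-1 (adjusted p = 3.3e-08) and Nol8 rose by 0.69 ± 0.088 (adjusted p = 2.9e-09).

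The authors' deposited tables give the same call for most of the genes. For Rapalink-1 their table called 26 of the 43 lower and 4 higher in footprints, 12 and 9 in RNA and 21 and 5 in efficiency. For rapamycin the authors' deposited table called 24 and 2 in footprints, 15 and 4 in RNA and 9 and 2 in efficiency. Per comparison, between 38 and 43 of the genes had the same call there as in the fits used here.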

How the data were processed

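The submitters' processing notes name build GRCm38 (mm10). For aligner, counter and annotation, names were not given in the sources used here. Per the labels' protocols, the ARTseq kit was used, and total RNA came from an aliquot of the footprint lysate. The deposited count values are whole-number reads per transcript without normalization. In the authors' deposited comparison tables, the signal column baseMean holds mean normalized counts, the log2 columns hold fold changes and their errors, the score column stat holds test statistics, and the p-value columns hold raw and adjusted p-values; the tool is not stated.

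Of 27382 rows, the 6378 at 0 in all libraries were dropped. Rows with equal counts or of 1 gene were then merged, which left 15307 features, each of the 43 genes with 1 distinct row. Genes passed filterByExpr (minimum count 10, total 15), which kept all 43 genes among 11271 in RNA, 11281 in footprints and 11627 in efficiency. edgeR 4.0.16 (R 4.3.3; TMM, robust glmQLFit, glmQLFTest) was fitted to the 9 libraries of an assay and, for efficiency, as the interaction of assay and treatment over all 18, with Benjamini-Hochberg adjustment over all genes. The scripts were tested on simulated data. Alternatives were DESeq2 1.42.0, other scalings and filters, a replicate block and leaving out replicates. Replicate numbers did not clearly pair samples across treatments (correlation of same-numbered deviations from -0.19 to 0.23), so no block was used. Given in full were, in each of 8 role groups, the 2 genes with the smallest and the 1 with the largest efficiency p for Rapalink-1 against DMSO, and Fbl, Nop56, Dkc1, Ncl, Ddx21, Bop1, Nob1 and Gnl3. Of other biogenesis genes, the 3 with the smallest p in each direction were named, and of start windows those of the 4 lowest and 4 highest efficiency changes. Rrs1, Nip7, Nop16, Tsr1, Nop2 and Gar1 were given by library, and the motif windows of Pes1 and Nop2 shown, after their values were seen. The members and lists were chosen with earlier results of these data known. Sequences and start positions are from RefSeq (GRCm38.p6), matched by symbol for 38 of the 43 genes.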

Additional observations from a re-analysis of the deposited data

How the results depend on the processing

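The 43 genes gave 129 values per assay over the 3 comparisons. With the DESeq2 Wald test the call was the same for 127 of them in RNA, 123 in footprints and 125 in efficiency, and with DESeq2 size factors for 124, 127 and 129. No filter kept 126, 128 and 127 calls, and summed rows 128, 128 and 129. The number of genes with higher RNA under rapamycin became 1 in place of 2 with DESeq2 size factors, without a filter, with the replicate block and with only the compared treatments fitted. The number with higher footprints under rapamycin became 1 in the last of these. The cause was not tested.

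Library totals moved more. With Rapalink-1 against DMSO, RNA was lower for 20 and higher for 4 (33.1% and 9.96% of all genes), footprints lower for 9 and higher for 17 (14.1% and 47.9%), and efficiency lower for 4 and higher for 19 (7.22% and 47.8%). With rapamycin, footprints were lower for 15 (5.8%) and efficiency for 4 (7.25%). Between the drugs, RNA was lower for 16 and higher for 10 with Rapalink-1 (35.2% and 9.37%), footprints lower for 9 (16.2%), and efficiency lower for 5 and higher for 23 (10.3% and 44.7%). Footprints of Nolc1 and Gnl2 with Rapalink-1 reversed, to 0.16 and 0.14. All genes of a comparison shift together under this scaling.

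Replicate numbers did not clearly pair the samples. The correlation of same-numbered deviations had a median of -0.02 in RNA and 0.12 in footprints. For different numbers the median was 0.04 in RNA and -0.06 in footprints, so the footprints leaned toward pairing. With the replicate block 127 of 129 calls were the same in RNA, 127 in footprints and 129 in efficiency. With the shared lysate as the block, 128 were the same in efficiency.

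Leaving out single replicates gave, with Rapalink-1, 10 to 13 lower and 8 to 9 higher in RNA, 23 to 26 and 2 to 4 in footprints, and 20 to 21 and 3 to 7 in efficiency. With rapamycin it gave 10 to 17 and 0 to 3 in RNA, 17 to 21 and 1 to 3 in footprints, and 4 to 9 and 0 to 3 in efficiency. Between the drugs it gave 6 to 6 and 16 to 18 in RNA, 17 to 18 and 12 to 15 in footprints, and 16 to 17 and 6 to 8 in efficiency. With 3 replicates per group the spread of a gene as well as its size decided a call: with Rapalink-1, Nolc1 footprints were called at -0.12 and Ncl RNA at -0.25 was not.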
